A study of Mus musculus with 2 samples.

Results

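The genes described here encode enzymes and a chaperone that modify, fold and crosslink collagen. They are 9 of the 37310 genes of GENCODE release M1 and are the following, chosen with earlier results of these data known: *P4ha1*, *P4ha2* and *P4hb* (prolyl 4-hydroxylase), *Plod1*, *Plod2* and *Plod3* (lysyl hydroxylases), *Serpinh1* (the chaperone HSP47), and *Lox* and *Loxl2* (lysyl oxidases). Their reads were counted in the non-polyadenylated (NPA) RNA of mouse embryonic stem cells (ESCs) and of neuronal progenitor cells (NPCs) derived from them, 1 strand-specific library each. Both libraries come from male cells of the R1 line. The ESCs, at passage 18, were cultured with LIF and fetal calf serum over a layer of embryonic fibroblasts whose division Mitomycin C had stopped. The NPCs were gathered on day 7. Withdrawal of LIF for 4 days gave embryoid bodies, which then grew attached to poly-L-ornithine and fibronectin in a medium whose additives were ITS (insulin, transferrin, selenium) and fibronectin. The deposited placements number 4271306 reads in the ESC library and 4399729 in the NPC library, so 1 read is worth 0.234 and 0.227 RPM, the count scaled to the library total.

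A collagen chain is modified while it enters the endoplasmic reticulum. Prolyl 4-hydroxylase, made of a catalytic alpha subunit (*P4ha1* or *P4ha2*) and the beta subunit protein disulfide isomerase (*P4hb*), hydroxylates prolines and so stabilises the triple helix. Lysyl hydroxylases modify lysines, which then carry sugars or take part in crosslinks, HSP47 binds the folded helix on its way out, and lysyl oxidases oxidise lysines outside the cell so that neighbouring molecules join. Early extraembryonic endoderm is known for laying down a basement membrane rich in collagen IV and laminin.

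The mRNAs of these genes are polyadenylated, and the fraction had been passed over oligo(dT) in 3 rounds, so the reads come from RNA that was not removed. How much of each mRNA was removed cannot be read from the 2 sequencing libraries. The paper also put both fractions on tiling arrays, which were not used here. A level in the fraction thus cannot be told apart from a difference in what was left behind. With 1 library per cell type there is no replicate check. Every interval is a 95% interval that covers counting error only, and each ratio compares these libraries, not the cell types. In such bulk RNA, fewer cells of a type and less RNA per cell cannot be told apart.

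The markers of the label were looked at before the genes. Of 10 pluripotency genes 9 were lower in the NPC library, where 62.8% of all genes with at least 10 pooled reads were higher. *Pou5f1* went from 2623 to 724 reads, *Nanog* from 1576 to 601 and *Esrrb* from 1125 to 258. The exception was *Lin28a*, with 425 and 953 reads. The 9 annotated neural progenitor genes summed to 64.9 RPM in ESCs and 67.0 RPM in NPCs. *Tubb3*, a neuronal tubulin, had 109 and 87 reads, *Nes*, the intermediate filament of neural progenitors, 66 and 121, and *Msi1*, an RNA-binding protein, 99 and 60. *Pax6*, a transcription factor of neural progenitors, had 1 and 12 reads. Of the 4 genes with at least 10 reads, *Nes* and *Pax6* were higher in NPCs, *Pax6* more than 2-fold, and *Tubb3* and *Msi1* lower. *Fabp7*, *Neurog2* and *Pou3f2* had 0 reads in ESCs and between 2 and 5 in NPCs. All 12 extraembryonic endoderm genes were more than 2-fold higher in NPCs, beside 24.6% of all genes with at least 10 pooled reads. This list, like the others, was chosen with earlier results of these data known. The count therefore describes the list and is not independent evidence. The sum of the 12 rose from 539 to 12330 RPM. The 3 with the most reads were *Col4a1* (856 and 20753 reads), *Lamb1* (585 and 10367) and *Lama1* (427 and 10346). *Ttr* was the only one at 0 in ESCs, with 37 reads in NPCs. These markers go against the label NPC, which is kept below only as the name of the library, and what cells it holds is in doubt. The part of cells with endoderm markers in the results below was not tested.

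Reads at single positions show what the data are made of. The first base of a read is the same in both libraries at the most-read position of *P4ha2*, *P4hb*, *Plod2* and *Serpinh1*, and always lies in coding sequence. The 48 letters read there are shown for 3 of them, since they are the commonest direct evidence of each gene's RNA in the fraction. Each equals mm9, and the strand given is that of the gene.

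*Serpinh1*, chr7:106494702-106494749, minus strand: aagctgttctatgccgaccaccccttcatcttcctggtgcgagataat
*P4hb*, chr11:120424552-120424599, minus strand: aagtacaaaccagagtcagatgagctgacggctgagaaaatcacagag
*Plod2*, chr9:92476138-92476185, plus strand: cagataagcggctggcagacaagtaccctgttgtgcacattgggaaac

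The *Serpinh1* position gave 16 ESC and 217 NPC reads, the *P4hb* position 79 and 317, and the *Plod2* position 38 and 177. None of these positions held a large part of its gene: the share was 5.05% for *Serpinh1*, 4.75% for *P4hb* and 7.89% for *Plod2* in NPCs. *Lox* differed, with 6 of its 14 NPC reads at 1 position.

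Prolyl 4-hydroxylase had the most reads of the enzymes. *P4hb* (ENSMUSG00000025130.5, mm9 chr11:120421612-120434567, minus strand) gave 1928 ESC and 6668 NPC reads. That is a level of 158 RPKM, or RPM per kilobase of exon, in ESCs (151 to 165) and 530 RPKM (517 to 543) in NPCs, and an NPC over ESC ratio of RPM of 3.36 (3.19 to 3.53). It was the highest of the 9 genes in both libraries. Besides its place in the hydroxylase, its product forms disulfide bonds in many secreted proteins.

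The alpha subunits moved by different amounts. *P4ha1* (ENSMUSG00000019916.8, chr10:58786044-58836052, plus strand) gave 374 ESC and 621 NPC reads, or 21.3 RPKM (19.2 to 23.6) and 34.3 RPKM (31.7 to 37.1). Its ratio, 1.61 (1.42 to 1.84), was the lowest of the 8 genes with more RPM in NPCs. It ranked 5282 from the highest among 14859 genes. As a log2 ratio it was 0.69, inside the middle range of all genes, which ran from -0.39 to 0.99. *P4ha2* (ENSMUSG00000018906.8, chr11:53913597-53945167, plus strand) had 135 and 766 reads, or 5.07 RPKM (4.25 to 6.00) and 27.9 RPKM (26.0 to 30.0), a ratio of 5.51 (4.58 to 6.66). Per length of joined exons *P4ha1* exceeded *P4ha2* 4.20-fold (3.44 to 5.15) in ESCs and 1.23-fold (1.10 to 1.37) in NPCs. The order in NPCs depends on the gene model. Over the coding sequence of the longest coding transcript the density in NPCs was 265 reads per kb for *P4ha1* and 342 for *P4ha2*, whereas in ESCs it was 139 and 55.9. Over joined exons *P4hb* exceeded the summed RPKM of the alpha subunits 5.99-fold in ESCs and 8.51-fold in NPCs. Over coding sequence *P4hb* had 769 reads per kb in ESCs and 2891 in NPCs, which narrows the gap in both libraries.

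*Plod2* led the lysyl hydroxylases in both libraries. Its product acts on lysines in the short ends of the collagen chain, which later form crosslinks. *Plod2* (ENSMUSG00000032374.8, chr9:92437061-92503266, plus strand) gave 386 ESC and 2242 NPC reads, or 21.6 RPKM (19.5 to 23.9) and 122 RPKM (117 to 127), a ratio of 5.64 (5.06 to 6.30). *Plod1* (ENSMUSG00000019055.8, chr4:147283862-147310876, minus strand), which acts on lysines within the helix, had 190 and 511 reads, or 6.58 RPKM (5.67 to 7.58) and 17.2 RPKM (15.7 to 18.7), a ratio of 2.61 (2.21 to 3.10). *Plod3* (ENSMUSG00000004846.4, chr5:137462889-137472518, plus strand), whose product also transfers sugars to hydroxylysine, had 85 and 324 reads, or 4.40 RPKM (3.52 to 5.45) and 16.3 RPKM (14.6 to 18.2), a ratio of 3.70 (2.91 to 4.76). *Plod2* exceeded *Plod1* per length 3.29-fold (2.76 to 3.93) in ESCs and 7.10-fold (6.45 to 7.83) in NPCs. It exceeded *Plod3* 4.91-fold (3.87 to 6.29) and 7.48-fold (6.66 to 8.43). These folds use joined exons. Over coding sequence *Plod2* had 128 reads per kb in ESCs and 767 in NPCs, against 62.7 and 159 for *Plod1*, which narrows that gap, and 30.6 and 123 for *Plod3*.

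*Serpinh1* had the largest ratio of the 9 genes. Its product HSP47 is a chaperone with collagen as its main client. *Serpinh1* (ENSMUSG00000070436.5, chr7:106493885-106501740, minus strand) gave 350 ESC and 4298 NPC reads, or 33.7 RPKM (30.2 to 37.4) and 401 RPKM (389 to 413). The ratio was 11.9 (10.7 to 13.3), rank 245 from the highest among 14859 genes. The log2 ratio was 3.58 with all reads and 1.59 with each start position counted once. Against *P4hb* its level per length was 0.213 (0.190 to 0.239) in ESCs and 0.757 (0.729 to 0.787) in NPCs.

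The lysyl oxidases went opposite ways. *Loxl2* (ENSMUSG00000034205.8, chr14:70008978-70095640, plus strand), an oxidase known to crosslink collagen IV, gave 182 ESC and 1029 NPC reads, or 7.97 RPKM (6.85 to 9.22) and 43.7 RPKM (41.1 to 46.5), a ratio of 5.49 (4.68 to 6.46). *Lox* (ENSMUSG00000024529.6, chromosome 18, 52675723 to 52689521, minus strand), best known for fibrillar collagen and elastin, had 38 and 14 reads, or 1.89 RPKM (1.34 to 2.60) and 0.677 RPKM (0.370 to 1.14). It was 2.80-fold (1.48 to 5.59) higher in ESCs. *Lox* had the fewest reads of the 9 genes in both libraries, and its counts are the least precise. *Loxl2* exceeded *Lox* per length 4.21-fold (2.95 to 6.14) in ESCs and 64.6-fold (38.3 to 119) in NPCs over joined exons. Over coding sequence the densities were 46.8 and 11.4 reads per kb in ESCs and 227 and 6.49 in NPCs, a smaller gap in NPCs.

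**Figure D1:**
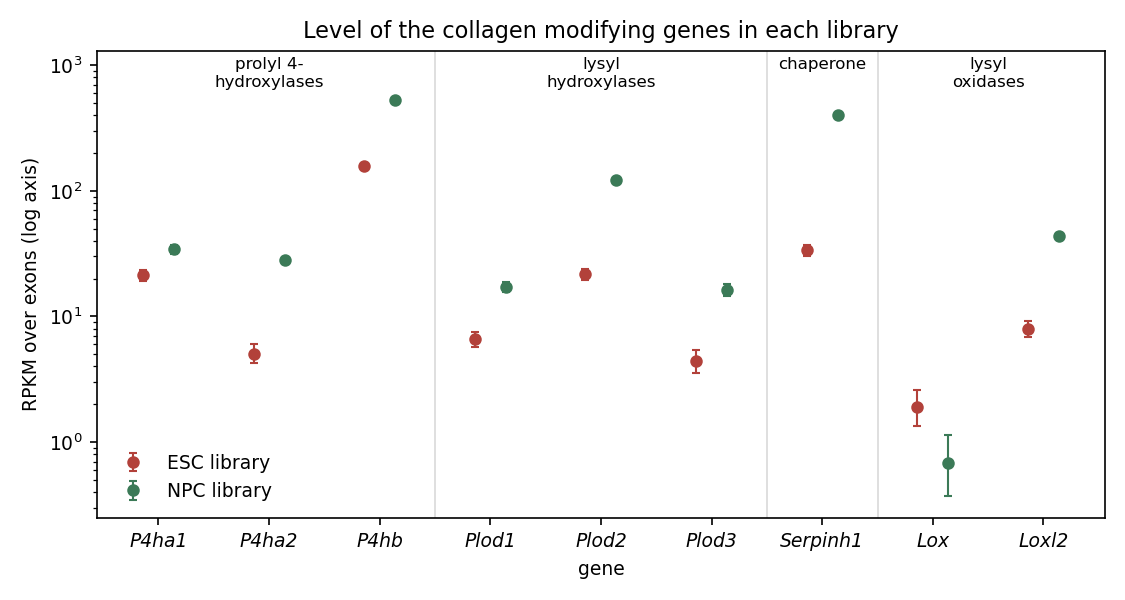
Level of each of the 9 genes in RPKM over joined exons (log axis), with a point for the ESC library (red) and the NPC library (green) and exact Poisson 95% intervals as bars. *P4hb* is the highest and *Lox* the lowest in both libraries, and *Lox* is the only gene whose NPC point lies below its ESC point.

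The order of the levels over joined exons can be read only as far as the intervals allow. In ESCs *P4hb* and *Serpinh1* stood above the rest. *Plod2* and *P4ha1* overlapped, and so did each neighbour in the run *Loxl2*, *Plod1*, *P4ha2* and *Plod3*. In NPCs *Plod1* and *Plod3* were the only neighbours whose intervals overlapped, in the order *P4hb*, *Serpinh1*, *Plod2*, *Loxl2*, *P4ha1*, *P4ha2*, *Plod1*, *Plod3* and *Lox*. *Loxl2* was thus above *P4ha1* in NPCs over joined exons, but below it over coding sequence, with 227 against 265 reads per kb.

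In all, 8 of the 9 genes had more RPM in NPCs, where 62.8% of the 14859 genes with at least 10 reads in the pooled libraries did. More than 2-fold higher in NPCs were 7 of the 9, beside 24.6% of all those genes, and *Lox* was more than 2-fold higher in ESCs, as were 12.8% of them. Among protein-coding genes alone the background shares were 65.6%, 26.2% and 11.6%. The median log2 ratio with 1 read added was 1.88 over the 9 genes and 0.34 over all genes, whose middle range ran from -0.39 to 0.99. The 9 genes together made up 0.0859% of all reads in ESCs and 0.374% in NPCs, a ratio of 4.36 (4.21 to 4.52). Without *P4hb* and *Serpinh1*, which had the most NPC reads, the ratio of the sums was 3.85 (3.63 to 4.08).

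The ratios shrank when each start position was counted once per library. Then 5 of the 9 genes were more than 2-fold higher in NPCs, where 12.04% of all genes were, and *P4hb* and *Plod1* no longer were. *P4hb* had a log2 ratio of 0.42 against 1.75 with all reads, and *Plod1* 0.85 against 1.38. *P4hb* had 4.26 reads per start in ESCs and 9.15 in NPCs, and *Serpinh1* 2.24 and 7.58. Repeated fragments cannot be told apart from abundant RNA without molecular identifiers.

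**Figure D2:**
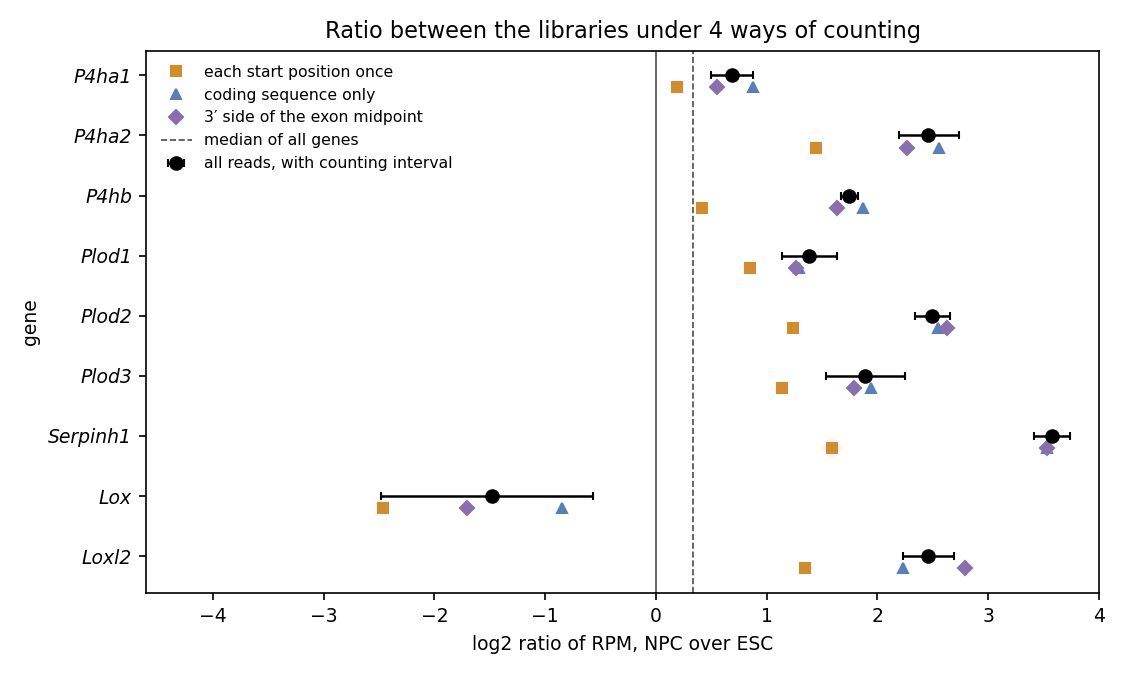
Log2 ratio of RPM, NPC over ESC, for each gene from all reads (black, with 95% counting intervals), from each start position counted once (orange), from coding sequence (blue) and from the 3′ side of the exon midpoint (purple). The solid line marks no difference and the dashed line the median of all genes from all reads at 0.34. *Lox* stays left of 0 and the other 8 genes stay right of 0 under each count.

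The reads followed the annotated exons and strand. On the opposite strand of the exons there was 1 read at *Lox* in ESCs and 1 at *Plod3* in NPCs, and 0 elsewhere, although *Loxl2* lies within the opposite-strand lincRNA *Gm16867* and *Plod3* overlaps *Znhit1*. Introns held far fewer reads per kb than exons. *Serpinh1* had 144 reads per kb in exons and 1.66 in introns in ESCs, and 1765 and 18.4 in NPCs. *Plod2*, with the longest annotated introns after *Loxl2*, had 92.4 and 2.34 in ESCs, and 536 and 4.90 in NPCs. *Lox* had 0 intronic reads in either library. The sequence of nearly every read occurs once in mm9, with 384 of 386 *Plod2* reads in ESCs, 2240 of 2242 in NPCs, 1027 of 1029 *Loxl2* reads in NPCs, and all reads of the other genes.

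Single exons of a gene differed in their ratios, taken here from the longest coding transcript. The 5 exons of *Serpinh1* had ratios from 11.1 to 17.8 and the 11 of *P4hb* from 2.05 to 4.85. *P4ha1* was uneven, and so were other genes. Over exons with at least 10 reads the ratios of *P4ha1* ran from 0.485 to 24.3. Those of *Loxl2* ran from 0.971 to 17.0, of *Plod3* from 1.07 to 12.6 and of *Plod2* from 0.971 to 10.9. The fourteenth of the 15 exons of *P4ha1* gave 14 ESC and 7 NPC reads, and the second had 6 and 34. Exons of at most 71 nt hold few places for a whole read that was aligned without splicing: 16 such exons had 45.4 reads per kb in ESCs and 165 in NPCs, beside 119 and 536 for the 111 longer ones.

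Some of these exons are alternatives to each other. *P4ha1* has a pair of 71-nt coding exons of which annotated transcripts use 1 or the other. They are shown because reads over them tell transcripts apart. In the mm9 sequences, plus strand, capitals mark the bases that differ between the exons.

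*P4ha1* upstream exon, chr10:58817088-58817158: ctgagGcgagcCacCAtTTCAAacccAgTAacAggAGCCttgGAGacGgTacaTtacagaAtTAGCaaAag
*P4ha1* downstream exon, chr10:58818098-58818168: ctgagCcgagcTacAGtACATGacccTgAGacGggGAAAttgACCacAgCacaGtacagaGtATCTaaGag
*Plod2* alternative exon, chr9:92496823-92496885: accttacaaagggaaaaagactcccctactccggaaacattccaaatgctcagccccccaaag

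The *P4ha1* pair is identical at 42 of 71 positions (59.2%), and every *P4ha1* read has a sequence that occurs once in mm9. The upstream exon had 1 read in ESCs and 25 in NPCs, and the downstream exon 4 and 3. The upstream share was 20% (exact 0.505 to 71.6%) of 5 reads in ESCs and 89.3% (71.8 to 97.7%) of 28 reads in NPCs. The 25 NPC reads began at 5 positions, so they may stand for few fragments. The exon before the pair had 63 and 86 reads and the exon after it 3 and 19. The 63-nt *Plod2* exon, which 1 of the annotated coding transcripts leaves out, gave 0 ESC and 3 NPC reads, while the exon before it had 40 and 230 and the exon after it 5 and 56. The alternative exons of *P4ha2*, 60 and 66 nt long, had 0 reads in both libraries. With few places for a whole read in each, a count of 0 there could not tell the transcripts apart.

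The study examined the 5′ or 3′ place of its array signal within genes, and here the place of the reads, a different measure, was counted. Over the 9 genes together 53.4% of the exonic reads in ESCs and 55.8% in NPCs began before the midpoint of the joined exons, on the 5′ side. The median of protein-coding genes with at least 50 reads was 50.9% over 7258 genes in ESCs and 48.4% over 8153 in NPCs. The pooled share counts each read alike, whereas this median counts each gene alike. Gene by gene, the middle share of the 9 was 56.7% in ESCs (*Plod2*) and 53.5% in NPCs (*Loxl2*). The genes differed widely from each other and little between libraries. *P4ha1* had 79.8% (75.3 to 83.8%) in ESCs and 81.6% (78.3 to 84.6%) in NPCs. *Plod1* had 24.5% (18.5 to 31.3%) and 30.4% (26.5 to 34.6%). *Loxl2* went from 62.9% (55.2 to 70.0%) to 53.5% (50.3 to 56.6%), but with each start counted once its shares were 65.7% and 64.9%. Shares depend on the gene model, since joined exons include parts that few transcripts use. On the longest coding transcript *Plod1* had 48.6% and 49.7%, *P4ha2* had 54.0% and 57.1% where joined exons gave 71.0% and 74.8%, and *Plod3* had 21.0% and 28.1% where they gave 46.4% and 49.7%.

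**Figure D3:**
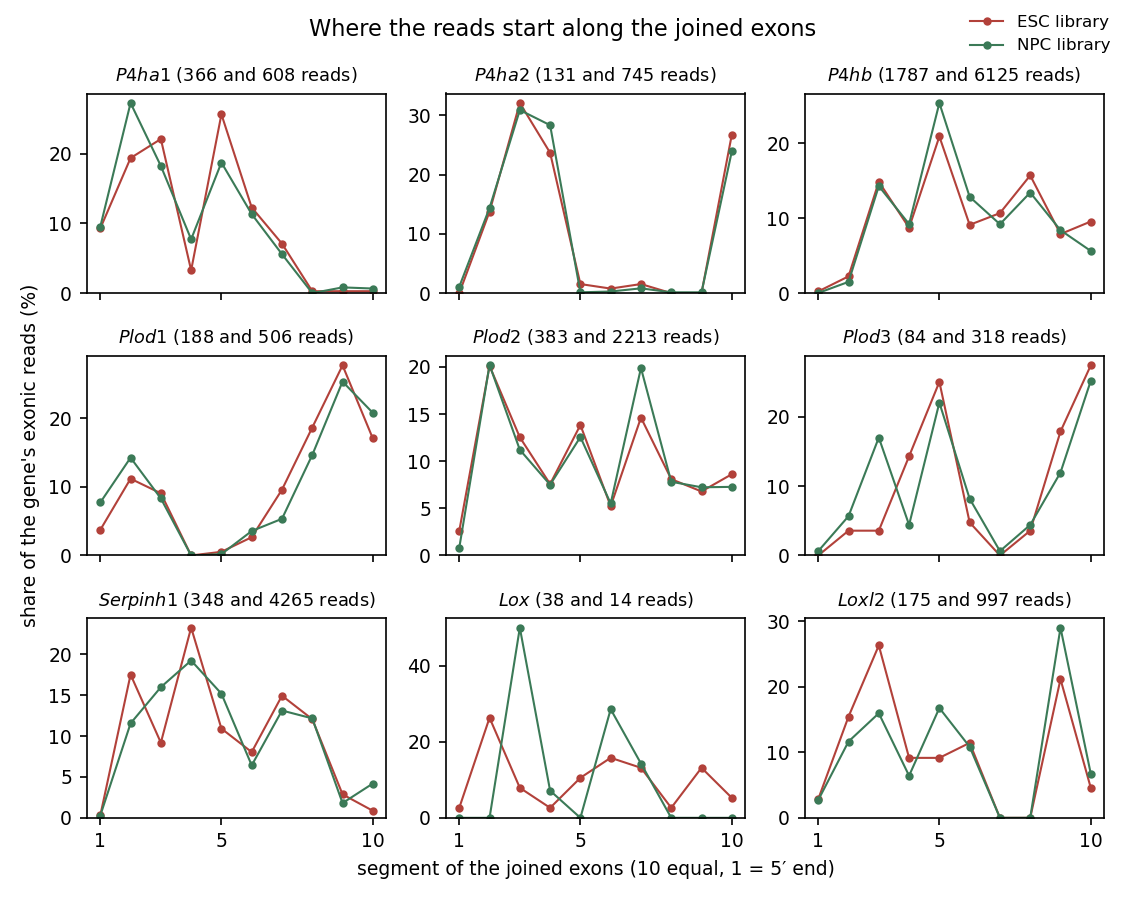
Share of the exonic reads of each gene that began in each of 10 equal segments of its joined exons, from the 5′ end, in the ESC library (red) and the NPC library (green), with the number of reads in each library in the panel titles. The lines of the libraries have the same peaks in most genes: *P4ha1* has hardly any reads in the last 3 segments, *Plod1* most in the last 3, and *Loxl2* 0 in the seventh and eighth.

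In detail, *P4ha1* had 3 of 366 ESC reads in its last 3 segments, 1 in each, and 0, 5 and 4 of 608 NPC reads. *Loxl2* had 37 of 175 ESC reads and 289 of 997 NPC reads in the ninth segment, within its long 3′ untranslated region, after 0 in the seventh and eighth. *Serpinh1* had its most reads in the fourth segment, 81 of 348 in ESCs and 821 of 4265 in NPCs. The authors removed reads in annotated repeats, and the part of that step in these gaps was not tested.

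Promoters were examined for letters that the members share. RefSeq (GRCm38.p6) gave the 250 bases before the start for 6 of the 9 genes, and *Plod2*, *Lox* and *Loxl2* were not analysed here. The motifs ACGTG and GCGTG, the core that hypoxia-inducible factors are known to bind, were searched on both strands. At least 1 of them was in all 6 windows and in 38.6% of 32851 promoters of the same length. ACGTG alone was in 16.6% of the promoters and GCGTG in 28.2%. No 2 matches overlapped in the 6 windows. The windows of 3 genes are shown, those of the gene with the most reads, the gene with the largest ratio and the alpha subunit with the larger ratio. Capitals mark the matches, as CACGT or CACGC where the motif is on the other strand.

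*P4ha2*, chr11:54100674-54100923, plus strand: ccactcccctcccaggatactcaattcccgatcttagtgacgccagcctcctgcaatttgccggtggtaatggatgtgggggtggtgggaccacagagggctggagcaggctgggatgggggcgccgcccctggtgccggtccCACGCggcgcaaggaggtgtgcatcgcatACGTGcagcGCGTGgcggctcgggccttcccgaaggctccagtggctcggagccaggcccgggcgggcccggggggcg
*P4hb*, chr11:120573254-120573503, minus strand: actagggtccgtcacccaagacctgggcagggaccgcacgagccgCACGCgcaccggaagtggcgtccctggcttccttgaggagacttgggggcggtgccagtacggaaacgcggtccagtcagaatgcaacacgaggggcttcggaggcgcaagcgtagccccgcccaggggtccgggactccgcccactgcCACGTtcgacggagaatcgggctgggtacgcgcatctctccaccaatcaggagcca
*Serpinh1*, chr7:99353240-99353489, minus strand: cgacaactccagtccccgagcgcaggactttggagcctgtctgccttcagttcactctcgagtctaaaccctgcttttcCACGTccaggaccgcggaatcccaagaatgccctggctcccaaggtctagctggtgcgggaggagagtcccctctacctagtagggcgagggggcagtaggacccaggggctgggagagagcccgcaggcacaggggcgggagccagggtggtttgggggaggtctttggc

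*P4ha2* holds 3 matches, *P4hb* 2 and *Serpinh1* 1. *Plod1* holds 1 match, *P4ha1* 3 and *Plod3* 4. A match is a description of the letters and not a binding site. CCAAT on both strands, a motif common in promoters and searched after the others, was in *P4hb* and *Plod3* and in 33.8% of all promoters. TTCNNGAA, a form of the heat-shock element, was in *P4ha2* and in 7.17% of all promoters, and its counterpart GAANNTTC was in none of the 6 windows and in 6.69% of all.

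Most genes of a list of 22 hypoxia-responsive genes, which holds none of the 9 members, were lower in NPCs. Of these 22, 21 had at least 10 reads. Among those, 16 were lower and 5 higher in NPCs, where 62.8% of all genes were higher. More than 2-fold lower were 11, beside 12.8% of all genes, and more than 2-fold higher was 1, beside 24.6%, which is *Ndrg1*, a gene named after its value was seen (145 and 498 reads). The median log2 ratio of the list was -1.12. The glycolytic enzyme gene *Aldoa* gave 7118 ESC and 2223 NPC reads, a ratio of 0.303 (0.289 to 0.318). *Eno1*, also glycolytic, had 3964 and 1601, a ratio of 0.392 (0.370 to 0.416). The glucose transporter gene *Slc2a1* had 2499 and 2494, a ratio of 0.969 (0.916 to 1.02).

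Other genes of collagen biosynthesis were mostly higher in NPCs. The list of 42 covers prolyl 3-hydroxylases, further chaperones and disulfide isomerases, sugar transferases, propeptide proteases, other lysyl oxidases, secretion factors and matrix partners; 41 were annotated under these symbols and 35 had at least 10 reads. Of these 28 were higher and 7 lower in NPCs, 19 of them more than 2-fold higher and 5 more than 2-fold lower. Of all genes 62.8% were higher, 24.6% more than 2-fold higher and 12.8% more than 2-fold lower. The median log2 ratio was 1.01, below the 1.88 of the members and above the 0.34 of all genes.

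*Sparc*, which encodes a collagen-binding matrix glycoprotein, had the most reads of the list in NPCs and in the pooled libraries, with 1151 in ESCs and 13828 in NPCs, a ratio of 11.7 (11.0 to 12.4) that is close to that of *Serpinh1*. *Ppib*, a peptidyl-prolyl isomerase of the prolyl 3-hydroxylase complex, had 415 and 1826 reads, a ratio of 4.27 (3.84 to 4.76). *Fkbp9*, another isomerase of the endoplasmic reticulum, had 404 and 1196, a ratio of 2.87 (2.57 to 3.23).

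General folding factors of the endoplasmic reticulum ranged widely. *Hspa5*, the chaperone BiP, had a ratio of 3.02 (2.88 to 3.16), and the disulfide isomerase gene *Pdia3* 3.10 (2.86 to 3.36). *Hsp90b1* stood at 1.86 (1.78 to 1.95), *Calr* at 2.01 (1.88 to 2.15) and *Canx* at 1.39 (1.31 to 1.47), the last 2 being lectin chaperones. *Pdia4* had a ratio of 1.28 (1.19 to 1.38) and *Pdia6* 1.26 (1.15 to 1.37), both disulfide isomerases like *P4hb*. *Glt25d1*, the galactosyltransferase that adds sugar to hydroxylysine, had 679 and 1076 reads, a ratio of 1.54 (1.40 to 1.70). With all reads *P4hb*, at 3.36, thus lay above each disulfide isomerase gene named here. The intervals do not overlap for *Pdia4* and *Pdia6*, and they overlap for *Pdia3*. With each start counted once the log2 ratio of *P4hb* was 0.42. That count is not given here for the other isomerases, so the order under it is not shown.

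*Fn1*, the fibronectin gene, was the only one of the 12 most-read genes of the list to be lower in NPCs, with 1815 reads in ESCs and 938 in NPCs and a ratio of 0.502 (0.463 to 0.543). Some further genes of the list are named after their values were seen. *Bmp1* and *Adamts3*, which cleave propeptides, had more reads in NPCs, 127 and 265, and 6 and 47. Of the same group, *Adamts14* and *Adamts2* had fewer, 21 and 4, and 5 and 1. *Tll1* had 0 and 2, and *Tll2* was at 0 in both libraries. *Pcolce*, an enhancer of propeptide cleavage, had fewer, 105 and 17. The oxidase genes *Loxl1* and *Loxl3* had 16 and 4, and 29 and 11, so that of 5 lysyl oxidases measured *Loxl2* alone had more reads in NPCs, *Loxl4* having 8 and 6. *Leprel1*, a prolyl 3-hydroxylase, gave 0 ESC and 70 NPC reads, and the lower 95% bound of its ratio was 17.9.

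**Figure D4:**
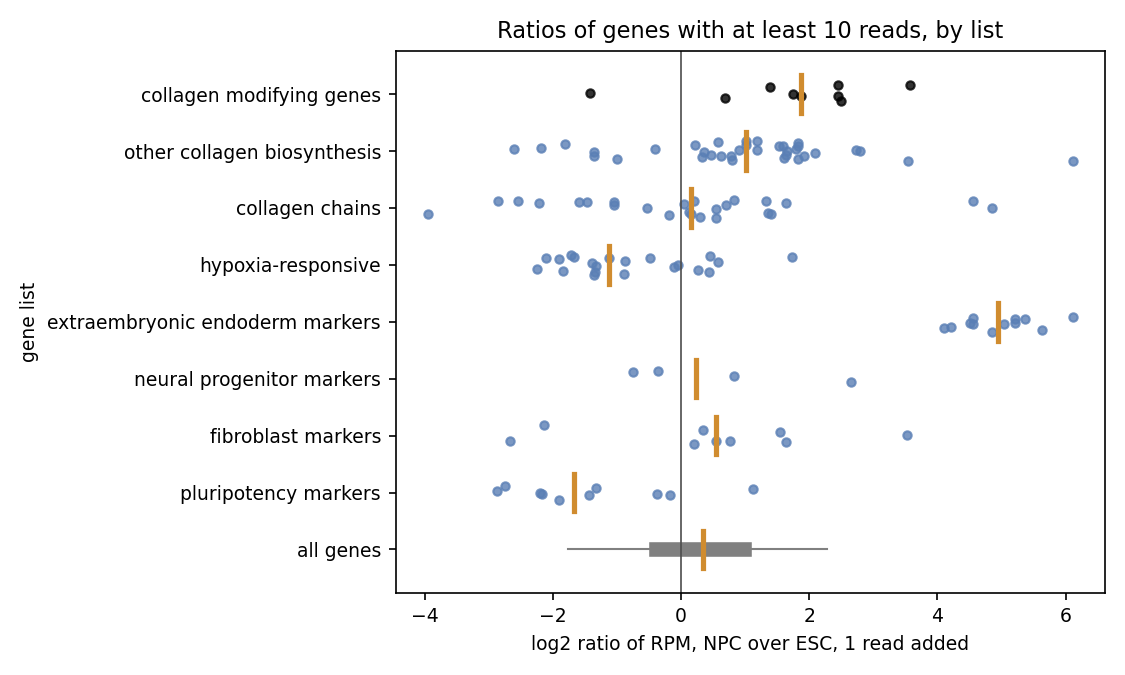
Log2 ratio of RPM, NPC over ESC with 1 read added, for the genes with at least 10 reads in each list (points, spread vertically for view), with the list median in orange. The lowest row shows all genes, the thick bar holding the middle range and the thin bar the 5th to 95th percentile. The 12 extraembryonic endoderm markers lie right of 4, and the 9 collagen modifying genes have a median of 1.88.

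The collagen chains are the substrates of these enzymes. Of 43 collagen chain genes 25 had at least 10 reads, 15 higher and 10 lower in NPCs, 6 of them more than 2-fold higher and 8 more than 2-fold lower. The shares over all genes were 62.8% higher, 24.6% more than 2-fold higher and 12.8% more than 2-fold lower. The median log2 ratio, 0.16, was below that of all genes and changed sign when each start was counted once (-0.22) or when counts were scaled by the median of gene ratios (-0.18). That scaling lowers every gene by the same amount. The basement membrane chains took most of the reads. *Col4a1* rose from 29.4 to 692 RPKM, a ratio of 23.5 (22.0 to 25.2), and *Col4a2* from 321 to 9596 reads, a ratio of 29.0 (26.0 to 32.5). These 2 genes are also in the endoderm list. *Col18a1*, another basement membrane collagen, had 1007 and 720 reads, a ratio of 0.694 (0.630 to 0.765).

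Markers of other cells that may make collagen were also counted. The 12 fibroblast genes, which would mark the feeder layer, summed to 75.2 RPM in ESCs and 143 RPM in NPCs, and of the 9 with at least 10 reads 7 were higher in NPCs, beside 62.8% of all genes. *Acta2*, smooth-muscle actin, had 27 of the 321 reads of the list in ESCs and 331 of the 631 in NPCs, *Col1a2* 51 and 165, and *Pdgfrb*, a growth factor receptor of mesenchymal cells, 93 and 21. *Thy1*, a surface protein of fibroblasts and other cells, had 79 and 12, and *Lum* was at 0 in both libraries. The 5 endothelial genes summed to 120 and 55.9 RPM, with *Pecam1*, which ESCs also express, at 475 and 100 reads, *Cdh5* at 0 and 74, and *Tek* at 21 and 43. The 5 cartilage and bone genes summed to 25.8 and 30.2 RPM, led by *Col2a1* (43 and 112 reads), *Acan* (65 and 11) and *Sox9* (0 and 8). The 5 muscle genes summed to 2.11 and 16.1 RPM, led by *Myh7* (3 and 44 reads), *Myh6* (3 and 15) and *Actc1* (1 and 11). The part of any of these cells in the levels of the 9 genes was not tested.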

How the data were processed

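NPA RNA of R1 ESCs and day 7 NPCs was sequenced on SOLiD, 1 library each, from 2 µg of RNA after 3 rounds on oligo(dT) and 1 round of ribosomal depletion, with 15 PCR cycles. The authors aligned 50-nt reads to mm9 with Bowtie (version not given in the sources used here; seed of 45 nt, up to 2 mismatches), keeping 1 placement per read, and removed mitochondrial, ribosomal and repeat reads. The deposited files list the placement of each read with 48 letters of sequence; they are neither counts nor a score, and intervals under 48 nt made up 3.77% (ESC) and 4.23% (NPC).

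Reads on the strand of a gene that overlapped the joined exons of its GENCODE M1 transcripts by at least 1 base were counted and scaled to RPM and RPKM by the library totals above. A read's 5′ end gave its place along the joined exons. Ratios have conditional binomial (Clopper-Pearson) intervals, counts exact Poisson and shares exact binomial ones, all at 95%. Lists add 1 read per library and keep genes with at least 10 pooled reads. No test between groups was made.

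The members and lists were chosen with earlier results of these data known. All 9 members are named, the 12 most-read genes of the biosynthesis list and the 3 most-read of each other list. Others are said to be chosen after their values were seen. *Lin28a*, *Pax6*, *Fabp7*, *Neurog2*, *Pou3f2*, *Ttr*, *Lum*, *Thy1* and *Loxl4* are also such. Lists share genes: *Col4a1* and *Col4a2* are collagen chains and endoderm markers, *Col1a1*, *Col1a2* and *Col3a1* chains and fibroblast markers, *Col2a1* a chain and a cartilage marker, and *Ero1l* is in the biosynthesis and hypoxia lists. *Sox1* and *Mia3* were not matched, and the values of 1 marker gene are not reported here. Planned protein comparisons were not run. Counting was tested on simulated data. The tools were SAMtools 1.23.1, pysam 0.24.0, numba 0.67.0, pandas 2.3.3, matplotlib 3.10.9, SciPy 1.17.1 and NumPy 2.4.6 under Python 3.11.15.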

Additional observations from a re-analysis of the deposited data

How the results depend on the processing

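Under 10 alternatives to the counting, scaling and gene model, 8 of the 9 genes stayed higher in NPCs, and 5 to 7 passed 2-fold. The share of all genes higher in NPCs moved from 62.8% to 50.2% with each start counted once and 49.9% with scaling by the median of gene ratios, and the share more than 2-fold higher from 24.6% to 12.04% and 15.7%. The 49.9% is set by that scaling, which centres the gene ratios, and is not a result. The median log2 ratio of the members ran from 1.14 to 1.98 over 13 alternatives against 1.89, and no member changed direction. *P4hb* ranged from 0.42 to 1.87, *Serpinh1* from 1.59 to 3.60, *P4ha1* from 0.19 to 0.88 and *Lox* from -2.46 to -0.85. Counting each start once gave the low end for the 8 genes higher in NPCs and for *Lox*. It moved the median of the other biosynthesis genes to 0.41 from 1.01, that of the collagen chains to -0.22 from 0.16, and the 5′ share of the members in NPCs to 53.7% from 55.8%. Scaling by the median of gene ratios put the collagen chains at -0.18, since it lowers every gene by the same amount. The last 2 alternatives for the chains, and the same for the hypoxia list, which kept its sign, were chosen after seeing the data. The median of all genes was 0.34 with library totals and 0.00 with starts counted once. Over coding sequence it was 0.11, but that median includes genes without coding sequence, which have no reads there. It thus cannot be set against the 0.34. Over exons the 12711 protein-coding genes with at least 10 reads had a median of 0.40. No paired analysis was possible because each cell type has 1 library, and leaving a library out leaves nothing to compare. The depth limits *Lox*, with 14 reads in NPCs, and most exons of at most 71 nt, which together held 46 reads in ESCs and 167 in NPCs.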
